A study of Arabidopsis thaliana with 8 samples.

Results

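The 6 genes described here were grouped as outputs of the jasmonate and salicylate defence pathways of Arabidopsis: the plant defensins PDF1.2 and PDF1.2b, the dioxygenase AT2G38240, the glutaredoxin GRX480, the ankyrin-repeat protein gene AT1G10340 and the chitinase gene AT1G02360. Each has 1 probe set, and they are 6 of the 13350 genes with a named probe set in the table. Of them, only PDF1.2, PDF1.2b and GRX480 are on the hormone output lists used below. The 6 were chosen by name after their values in these same arrays had been seen. They stood out between the genotypes, in the mutant's response to treatment or in the difference in response between the genotypes. Their values in those contrasts are therefore given as a description with no test. No gene of the 6 had been named for its response in wild-type seedlings alone, and only that contrast carries a test. It shares its arrays with the contrasts that chose the genes, so its p-values are not free of that choice.

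The series measured RNA on 8 single-colour Affymetrix Arabidopsis arrays, with 2 arrays in each of 4 groups. The tissue label reads seedling, while the protocol says that the roots were discarded. The groups were arr1,10,12 mutant seedlings in 10 µM benzyladenine (BA, a synthetic cytokinin), wild-type (WT) seedlings in the same BA medium, mutant seedlings in its solvent DMSO, and WT seedlings in DMSO. All seedlings were 14 days old, had grown on sucrose medium under continuous light, and spent 1 h in liquid medium, so both controls share the transfer and the solvent. The mutant is described as a knockout of the type-B response regulators ARR1, ARR10 and ARR12, the transcription factors that cytokinin signalling activates by phosphorylation. Its alleles are not given, and no named probe set here reads any of the 3 genes, so the genotype was not checked. The labels do not say whether replicates were grown as separate cultures, so each p-value speaks only of the spread among these arrays, which may be technical.

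Jasmonate is made from membrane lipids after wounding or attack by insects and necrotrophic fungi. Its conjugate with isoleucine removes JAZ repressors from transcription factors, and one branch of the response, shared with ethylene and run by ERF factors, switches on defensins such as PDF1.2. Salicylate rises in attack by biotrophic pathogens and acts through NPR proteins and TGA factors. GRX480 is induced by salicylate, binds TGA factors and can repress PDF1.2 when overexpressed, so the genes sit on both sides of the known antagonism between these hormones. Cytokinin signalling is known to strengthen salicylate defences in Arabidopsis.

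The deposited value is a ratio: each of the 6 genes is scaled to its own median across arrays, so a value of 1 is that gene's middle level, and levels cannot be set between genes. One array stood apart, mutant DMSO replicate 1. Its control transcripts had a 5′ to 3′ signal of -1.51 on the log2 scale (median of 6 probe-set pairs), against -0.01 to 0.15 on the other 7 arrays, and its 25S rRNA value was 197, against 0.666 to 3.48. It lay over 2-fold from its group mate at 17.9% of probe sets, against 0.747% to 3.34% in the other groups. Fits with all 8 arrays and with the 7 that remain without it are therefore both used. The sample file names carry 1 prefix for all WT arrays, another for 3 mutant arrays and one of its own for mutant DMSO replicate 1. Genotype and prefix cannot be told apart, while BA in WT was compared within 1 prefix.

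The 2 defensin genes, which encode small secreted antifungal peptides, had the widest ranges of the 6. PDF1.2 (AT5G44420) had relative values of 0.0215 and 0.121 on the mutant BA arrays, 1.15 and 1.05 on the WT BA arrays, 0.954 and 0.0453 on the mutant DMSO arrays, and 1.79 and 1.61 on the WT DMSO arrays. The 3 lowest values were thus all on mutant arrays, and every mutant array lay below every WT array. The fourth mutant array, DMSO replicate 1, was close to the WT BA arrays and 21.1-fold above its own group mate. The highest value was 83.3-fold above the lowest. The order of the groups by mean log2 value was WT DMSO, WT BA, mutant DMSO and mutant BA, and only the last pair of neighbours overlapped.

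PDF1.2b (AT2G26020) had the same order and the same single overlap. Its values were 0.0322 and 0.182 in mutant BA, 1.11 and 1.24 in WT BA, 0.889 and 0.116 in mutant DMSO, and 1.42 and 1.45 in WT DMSO. The paralogs moved together, with a Pearson correlation of 0.99 over the 8 arrays, which share the authors' scaling. This agreement is uncertain evidence for separate genes: the PDF1.2b probe set is of the kind its maker marks as open to cross-hybridisation, and the closely related PDF1.2c and PDF1.3, neighbours of PDF1.2 and PDF1.2b on their chromosomes, had no named probe set here.

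In fold terms, PDF1.2 was 21.5-fold lower in the mutant than in WT under BA, a log2 change of -4.42 ± 1.42 (SE with 8 arrays; ± 0.69 with 7). It was -3.18 without mutant BA replicate 1, -5.67 without mutant BA replicate 2, and -0.97 with an offset of 1 before the log, which shrinks the changes of values near 0. Under DMSO the log2 change between the genotypes was -3.03 ± 1.42 with 8 arrays and -5.23 ± 0.85 with 7. For PDF1.2b the changes were -3.94 ± 1.08 under BA (± 0.69 with 7 arrays; -2.69 and -5.19 without mutant BA replicates 1 and 2, and -0.98 with the offset), and under DMSO -2.16 ± 1.08 with 8 arrays and -3.63 ± 0.85 with 7. BA against DMSO within the mutant had no settled direction for PDF1.2, at -2.03 ± 1.42 with 8 arrays and 0.17 ± 0.85 with 7. For PDF1.2b that change was -2.07 ± 1.08 with 8 arrays and -0.60 ± 0.85 with 7. The values under DMSO and within the mutant thus turn on the array that stood apart, while those under BA do not use it.

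**Figure D1:**
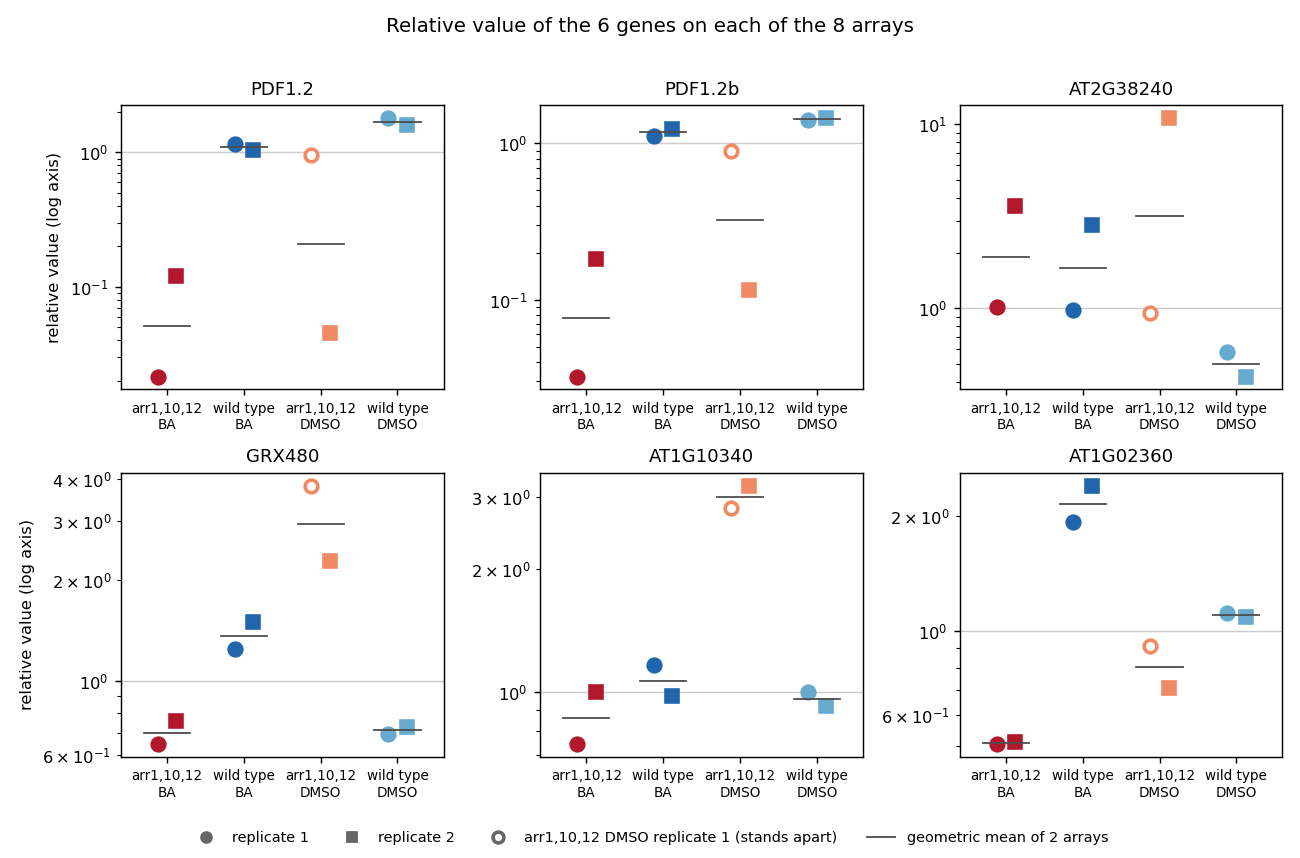
Relative value (log axis, 1 is the gene's median over the 8 arrays) of each of the 6 genes on every array, 1 point per array, in the 4 groups of 2 arrays. The defensins are lowest on 3 of the 4 mutant arrays, at 0.0215 to 0.182, while GRX480 and AT1G10340 are highest on the mutant DMSO arrays, at 2.27 to 3.83.

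AT2G38240 encodes a 2-oxoglutarate-dependent dioxygenase of the group that hydroxylates jasmonic acid and so removes it from the active pool. Its values were 1.02 and 3.59 in mutant BA, 0.981 and 2.82 in WT BA, 0.946 and 10.8 in mutant DMSO, and 0.579 and 0.426 in WT DMSO. Replicates differed as much as groups did: within the group the arrays were 3.52-fold, 2.88-fold, 11.4-fold and 1.36-fold apart in that order. The groups ran from mutant DMSO through mutant BA and WT BA to WT DMSO, and the first 3 overlapped as neighbours. Only WT DMSO lay below every other group.

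The genotypes differed in AT2G38240 by a log2 change of 0.20 ± 1.19 under BA (± 0.67 with 7 arrays), which is within the spread of the arrays. Under DMSO the change was 2.68 ± 1.19 with 8 arrays, and 4.44 ± 0.82 with 7, where mutant DMSO replicate 2 alone stands for the group. The other mutant DMSO array read 0.946, which was still above the higher WT DMSO value of 0.579.

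The 3 other genes of jasmonate turnover with a named probe set were also dioxygenases of this group: AT3G11180, AT5G05600 and JRG21. None passed the limma test in any contrast with 8 or 7 arrays. JRG21 was the only one with an unadjusted p under 0.05 in the 8-array fit, at a log2 change of 1.62 ± 0.66 in the mutant under DMSO (unadjusted p = 0.0470, limma adjusted p = 0.367). JRG21 had values of 0.977 and 3.57 in mutant BA, 0.887 and 1.02 in WT BA, 1.29 and 2.72 in mutant DMSO, and 0.456 and 0.813 in WT DMSO. Like AT2G38240, each of the 3 had its highest value on a mutant array of replicate 2: AT3G11180 at 0.912 and AT5G05600 at 2.48 under DMSO, and JRG21 at 3.57 under BA.

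**Figure D2:**
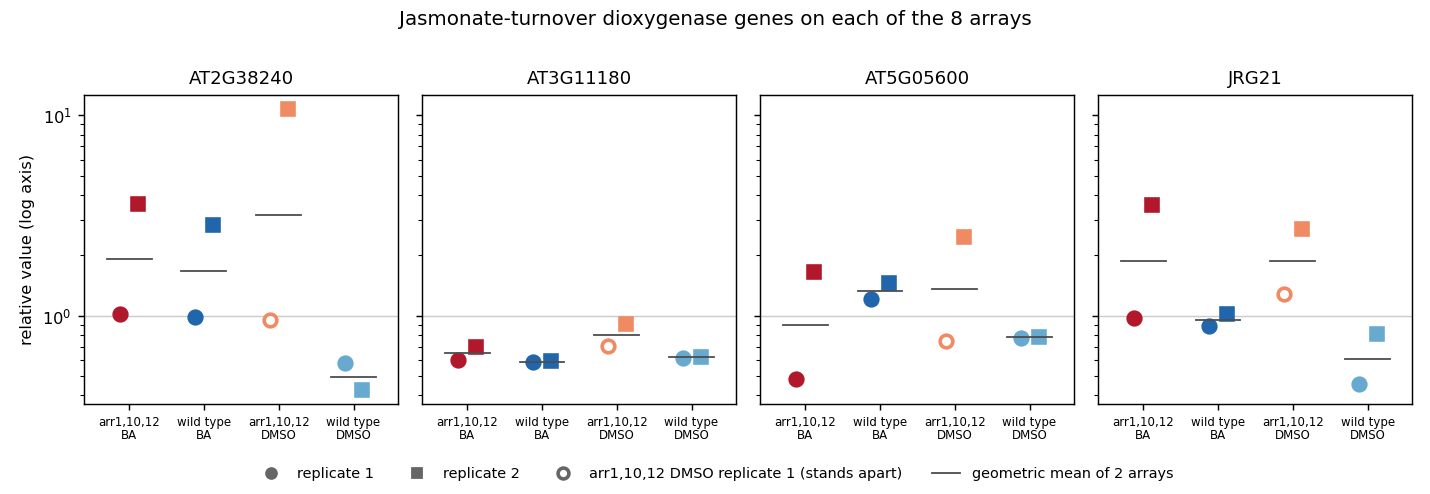
Relative value (log axis) of AT2G38240 and the other 3 measured dioxygenase genes of jasmonate turnover on each of the 8 arrays, 1 point per array in the 4 groups. AT2G38240 reaches 10.8 on mutant DMSO replicate 2, against 0.426 to 0.579 on the WT DMSO arrays, and JRG21 reaches 3.57 on mutant BA replicate 2.

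GRX480 (AT1G28480) encodes a CC-type glutaredoxin, a plant-specific class that binds TGA transcription factors. It was highest in mutant DMSO, with values of 0.648 and 0.758 in mutant BA, 1.24 and 1.50 in WT BA, 3.83 and 2.27 in mutant DMSO, and 0.696 and 0.728 in WT DMSO. Both mutant DMSO arrays were above all 6 others, and both WT BA arrays were above the 4 that remained. The order was mutant DMSO, WT BA, WT DMSO and mutant BA, and only WT DMSO and mutant BA overlapped. BA and DMSO therefore stood in opposite order in the 2 genotypes.

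The GRX480 log2 change of the mutant from WT was -0.96 ± 0.26 under BA (± 0.16 with 7 arrays) and 2.05 ± 0.26 under DMSO (1.68 ± 0.19 with 7). Within the mutant, BA gave -2.07 ± 0.26 (-1.70 ± 0.19 with 7 arrays). The difference in BA response, mutant minus WT, was -3.01 ± 0.37 with 8 arrays and -2.64 ± 0.25 with 7.

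AT1G10340 encodes an ankyrin-repeat protein, a class that includes salicylate-linked defence regulators. It shared the high values in mutant DMSO, at 2.81 and 3.19, against 0.745 and 1.00 in mutant BA, 1.16 and 0.975 in WT BA, and 1.00 and 0.922 in WT DMSO. The 6 arrays outside mutant DMSO spanned only 0.745 to 1.16, and their groups overlapped as neighbours. Here the arrays of mutant DMSO agreed within 1.13-fold, including the one that stood apart on its controls. The log2 change of the mutant from WT under DMSO was 1.64 ± 0.20 (1.73 ± 0.23 with 7 arrays), while under BA it was -0.30 ± 0.20. BA against DMSO in the mutant was -1.79 ± 0.20 (-1.88 ± 0.23 with 7 arrays).

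AT1G02360, a member of the chitinase family of enzymes that cut fungal cell walls, was the only one of the 6 whose 4 groups did not overlap anywhere. The share of all probe sets with 4 separate groups was not counted, so this is a description only. Its values were 0.505 and 0.512 in mutant BA, 1.93 and 2.40 in WT BA, 0.911 and 0.708 in mutant DMSO, and 1.11 and 1.09 in WT DMSO. WT BA was highest, then WT DMSO, mutant DMSO and mutant BA. The mutant was 4.23-fold lower than WT under BA, a log2 change of -2.08 ± 0.19 (± 0.15 with 7 arrays). Under DMSO the change was -0.45 ± 0.19 (-0.63 ± 0.18 with 7 arrays). BA and DMSO again stood in opposite order in the genotypes: within the mutant the change was -0.66 ± 0.19, and the difference in response was -1.63 ± 0.26 (-1.44 ± 0.24 with 7 arrays).

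**Figure D3:**
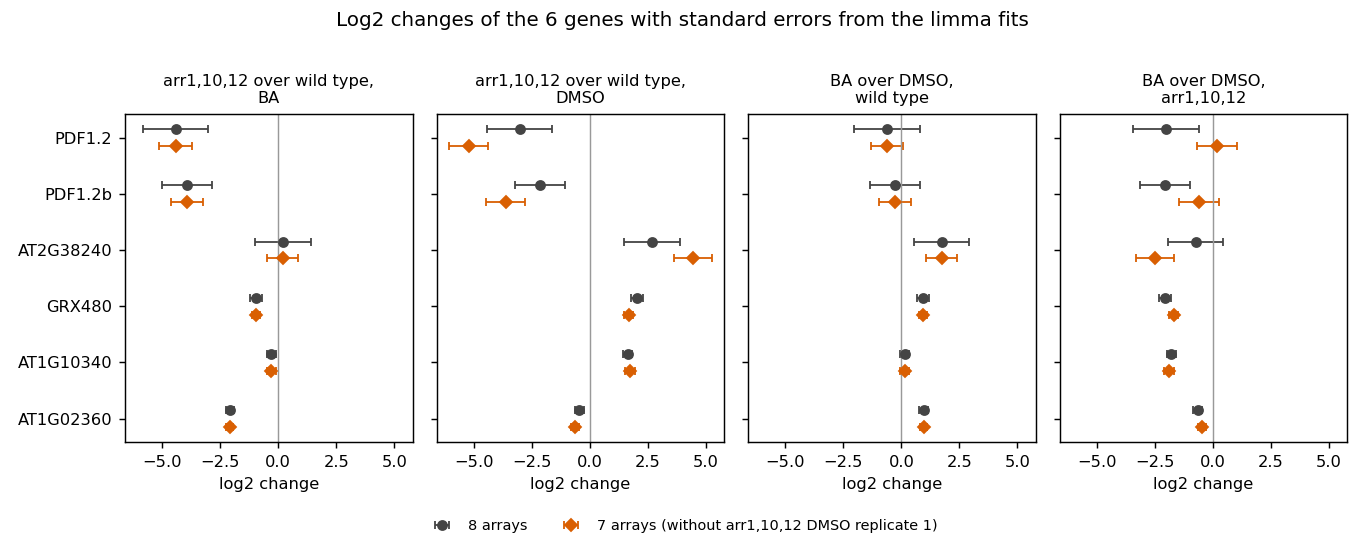
Log2 change (x axis) of each of the 6 genes in 4 contrasts, with bars of 1 standard error from limma, for 8 arrays and for 7 without mutant DMSO replicate 1. PDF1.2 lies at -4.42 between the genotypes under BA, and its change with BA in the mutant moves from -2.03 to 0.17 when that array is left out.

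Set against all probe sets, groups without overlap were common on these arrays. The mutant lay wholly below WT under BA in 4 of the 6 genes (PDF1.2, PDF1.2b, GRX480 and AT1G02360), as it did at 18.4% of all probe sets. Under DMSO it lay wholly below in 3 of the 6, against 13.8% of probe sets, and wholly above in the other 3, against 29.4%. BA lay wholly below DMSO in the mutant in 3 of the 6 genes, against 15.1% of probe sets. These contrasts had chosen the genes, so nothing is read from the counts. The 3 mutant arrays of 1 prefix lay below the other 5 arrays at 6.06% of probe sets, and by over 2 log2 units at 11 (0.0484%), of which the 4 that carry a gene name are PDF1.2, PDF1.2b, AT4G14060 and AT4G15390. Both mutant DMSO arrays lay above the other 6 at 7.38% of probe sets, and by over 0.5 log2 units at 39 (0.171%), GRX480 and AT1G10340 among them. Both patterns are those that the genes of the 6 themselves show, and the values were known. Their presence among these probe sets is therefore a description, and nothing is read from these shares either.

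In WT seedlings, GRX480 and AT1G02360 read higher after 1 h of BA than after DMSO, and neither passed with 8 arrays. The contrast uses the same WT arrays as the comparisons between the genotypes and is part of the difference in BA response. Those contrasts had chosen the genes, so it is not independent of the choice, and nothing is read from the counts below. With 8 arrays none of the 6 genes passed limma at an adjusted p under 0.05 and 2 had an unadjusted p under 0.05, against 0.022% and 7.24% of probe sets. With 7 arrays 2 of the 6 passed, against 2.27%. BA lay wholly above DMSO in 3 of the 6 genes, against 20.6% of probe sets, and wholly below in 2, against 29.2%.

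GRX480 was 1.92-fold higher with BA than with DMSO in WT, a log2 change of 0.94 ± 0.26 with 8 arrays (limma adjusted p = 0.399) and ± 0.16 with 7 (limma adjusted p = 0.0377). AT1G02360 was 1.95-fold higher, at 0.97 ± 0.19 with 8 arrays (limma adjusted p = 0.211) and ± 0.15 with 7 (limma adjusted p = 0.0310). Both were higher on 2 of 2 BA arrays than on either DMSO array. Neither call is firm. Leaving out a WT array as well as mutant DMSO replicate 1 put the limma adjusted p at 0.0983 without WT BA replicate 1, 0.261 without WT BA replicate 2, 0.231 without WT DMSO replicate 1 and 0.185 without WT DMSO replicate 2 for GRX480. For AT1G02360 the same settings gave 0.0709, 0.206, 0.193 and 0.180. The 4 WT arrays fitted alone, which form 1 file-name prefix, gave limma adjusted p values of 0.0261 for GRX480 and 0.0270 for AT1G02360. All 8 arrays with array weights gave limma adjusted p values of 0.0246 for GRX480 and 0.0164 for AT1G02360. Neither gene passed in the other settings that kept all 8 arrays. For GRX480 the limma adjusted p was 0.607 with an offset of 1, 0.139 after quantile normalization, 0.416 with dim probe sets left out and 0.589 with the replicate block. For AT1G02360 these settings gave 0.136, 0.0885, 0.256 and 0.382.

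The other 4 genes did not pass in WT with 8 arrays, with 7, with array weights or with the WT arrays alone. AT2G38240 had a log2 change of 1.74 with BA (± 1.19 with 8 arrays, limma adjusted p = 0.912; ± 0.67 with 7, limma adjusted p = 0.277), with both BA arrays above both DMSO arrays. PDF1.2 had -0.63 ± 0.69 with 7 arrays (limma adjusted p = 0.762) and PDF1.2b -0.28 ± 0.69 (limma adjusted p = 0.909), each with both BA arrays below both DMSO arrays. AT1G10340 had 0.15 ± 0.19 (limma adjusted p = 0.797) with overlapping arrays. The WT arrays alone gave limma adjusted p = 0.107 (unadjusted 0.00923) for AT2G38240, 0.0624 (unadjusted 0.00328) for PDF1.2, 0.316 for PDF1.2b and 0.665 for AT1G10340. With 8 arrays the standard errors of the defensins in WT were 1.42 and 1.08 (limma adjusted p = 0.999 for both).

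Relatives of 5 of the 6 genes were counted from lists of their families and hormone pathways, while AT1G10340 is on none of these lists and its ankyrin-repeat relatives were not counted. Of 53 genes with a named probe set on 12 lists, these 5 left out, 10 passed between the genotypes under BA with 7 arrays, 2 higher and 8 lower in the mutant, against 4.12% and 3.56% of all probe sets. Under DMSO 7 passed, 5 higher and 2 lower, against 2.33% and 1.89%. In WT 3 passed with BA, all higher, against 0.844%. None passed with 8 arrays, a rule that called 0.141%, 0.00879% and 0.022% of probe sets in these contrasts, where 10, 12 and 7 of the 53 had an unadjusted limma p under 0.05 (against 13.2%, 13.5% and 7.24%). Within the mutant, and for the difference in BA response, none of the 53 passed limma with 8 arrays (0% of probe sets in both) or with 7 (0.0352% and 0.453%). With 8 arrays 3 and 5 of them had an unadjusted p under 0.05, against 5.34% and 8.66%.

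With a further array left out of the 7, the 10 calls under BA became 4 and 2 without WT BA replicates 1 and 2, 7 without either WT DMSO array and 15 without either mutant BA array. The 7 under DMSO became 0 without either WT DMSO array, 4 without either WT BA array and 12 without either mutant BA array, and the 3 in WT became 1 without WT BA replicate 1, 0 without any other WT array and 6 without either mutant BA array.

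The CC-type glutaredoxins, the family of GRX480, held 5 of the 8 lower calls under BA. Of 14 measured relatives, 11 had a negative change in the mutant and 5 fell (median log2 change -0.89, against 0.12 over all probe sets). ROXY2, known for its role in anthers, had values of 0.931 and 1.07 in mutant BA, against 2.52 and 2.76 in WT BA, a log2 change of -1.40 ± 0.18 (limma adjusted p = 0.00848 with 7 arrays and 0.0703 with 8). The largest of the 5 changes was in AT4G15660, at -2.33 ± 0.40 (limma adjusted p = 0.0196 with 7 arrays, 0.132 with 8), and it also fell under DMSO (log2 change -2.36; limma adjusted p = 0.0498 with 7 arrays). For the list genes, fell and rose under BA or under DMSO mean lower and higher in the mutant than in WT. AT3G62950, AT4G15680 and AT2G47880 were lower in the mutant under BA, by 1.73, 1.65 and 1.55 on the log2 scale. BA against DMSO within the mutant gave them 0.02, 0.57 and 0.02 with 8 arrays. Several of these genes lie side by side and have similar sequences, so their probe sets may share signal. The count of 5 went to 1 when WT BA replicate 2 was also left out, to 2 without WT BA replicate 1, to 3 without either WT DMSO array, and to 6 and 8 without mutant BA replicates 1 and 2.

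With BA in WT, 12 of the same 14 glutaredoxins had a positive change (median 0.56, against -0.04 over all probe sets) and 2 rose with 7 arrays. ROXY2 had 1.33 ± 0.18 (limma adjusted p = 0.0216 with 7 arrays, 0.132 with 8) and AT2G47880 had 1.55 ± 0.14 (limma adjusted p = 0.00739 with 7 arrays, 0.351 with 8). In the mutant under DMSO, where GRX480 had 2.05 with 8 arrays, 9 of these 14 relatives had a negative change and the highest was 0.57. The contrast of BA in WT and that of the genotypes under BA use the same WT BA arrays. High values on those arrays alone give a positive change in the first and a negative change in the second. The directions in these contrasts are therefore not separate results. With BA in WT, GRX480 had the same sign as most of these relatives. The calls are not stable to the WT arrays: 1 remained without WT BA replicate 1, and 0 without any other WT array.

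The chitinases, the family of AT1G02360, showed no common direction. Of 13 measured relatives, 7 had a negative and 6 a positive change in the mutant under BA (median -0.08). Those that fell were AT2G43590 (log2 change -1.60; limma adjusted p = 0.0132 with 7 arrays), and AT2G43610, by 1.40 (limma adjusted p = 0.00462 with 7 arrays), and only AT2G43610 also fell under DMSO, by 1.19 with 7 arrays (limma adjusted p = 0.0202), where the change was -0.77 with 8. AT4G01700 passed as higher in the mutant under DMSO with 7 arrays (log2 change 1.56 ± 0.21, limma adjusted p = 0.0164). Its mutant DMSO arrays read 0.911 and 2.36, against 0.904 and 0.702 in WT, and with 8 arrays the change was 0.88 ± 0.42. The 2 calls under BA became 1 without either WT BA array and 4 without mutant BA replicate 1, and the 2 under DMSO became 0 without either WT DMSO array. With 8 arrays these 3 genes had limma adjusted p values from 0.154 to 0.414. AT2G43620, chosen after its values were seen, read 12.5 on mutant BA replicate 2 and 8.07 on mutant DMSO replicate 2, against 0.525 to 1.64 on the other 6 arrays.

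**Figure D4:**
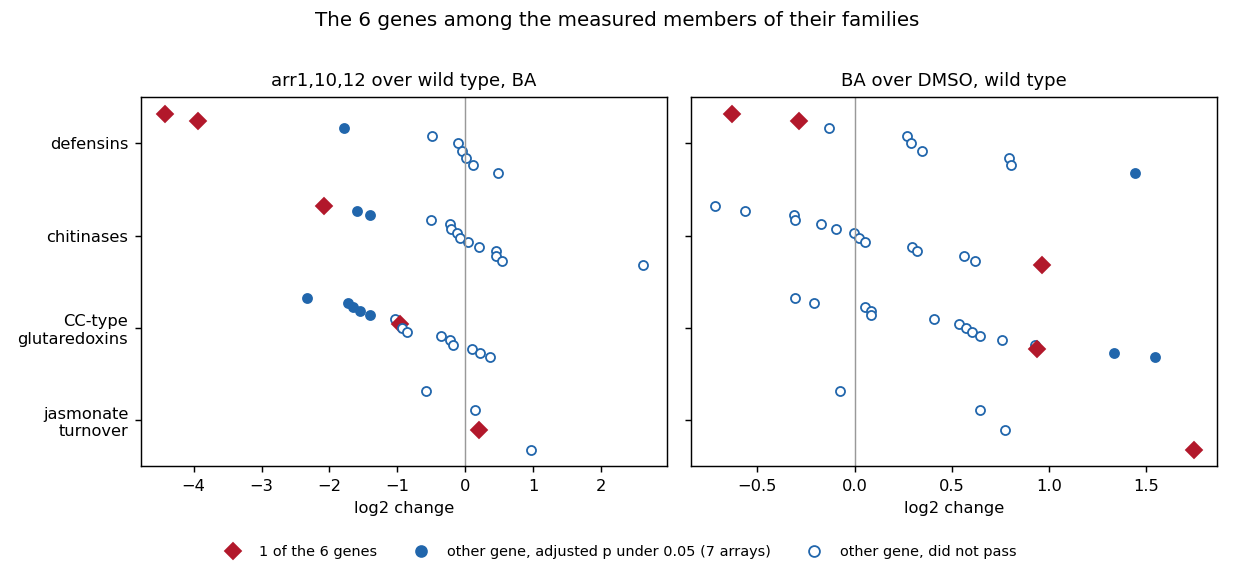
Log2 change with 7 arrays (x axis) of 5 of the 6 genes (diamonds) and their measured relatives (circles) in 4 families. Circles are filled where the limma adjusted p was under 0.05. The panels are mutant over WT under BA, and BA over DMSO in WT. AT1G10340 is in none of the 4 and is not shown. PDF1.2 and PDF1.2b lie at -4.42 and -3.94 under BA, and 11 of 14 other glutaredoxins lie below 0 there, against 12 of 14 above 0 in WT. Both panels use the same WT BA arrays, so they are not separate results.

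The other defensins lay on both sides of 0. Of 7 measured, 4 had a negative and 3 a positive change in the mutant under BA, and under DMSO all 7 were positive with 8 arrays and 6 with 7. PDF2.1 fell under BA (log2 change -1.78; limma adjusted p = 0.00835 with 7 arrays, 0.506 with 8), and rose with BA in WT, by 1.44 ± 0.23 (limma adjusted p = 0.0324 with 7 arrays, 0.930 with 8). Both of these changes use the WT BA arrays, where PDF2.1 read 2.33 and 3.16. It read 12.7 on mutant DMSO replicate 1, against 0.654 to 3.16 on the other arrays. LCR69, a defensin of the low-molecular-weight cysteine-rich group, rose in the mutant under DMSO, by 1.58 ± 0.32 (limma adjusted p = 0.0468 with 7 arrays, 0.281 with 8). The call under BA was lost when WT BA replicate 2 was also left out, and those under DMSO and in WT when any 1 WT array was.

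Few genes of the hormone pathways themselves could be read, 19 of those on 9 lists once the genes described above were left out. THI2.1, a jasmonate-induced thionin, rose in the mutant both under BA, by 1.39 ± 0.20 (limma adjusted p = 0.0113 with 7 arrays, 0.173 with 8), and under DMSO, by 1.66 ± 0.24 (limma adjusted p = 0.0187 with 7 arrays, 0.193 with 8). Its 4 mutant values ran from 1.25 to 2.15, against 0.612 to 0.749 in WT, which is the opposite side from the defensins. OPCL1, a CoA ligase of jasmonate synthesis, rose in the mutant under DMSO with 7 arrays (log2 change 2.27 ± 0.40, limma adjusted p = 0.0317), but its mutant DMSO arrays read 0.696 and 3.34, against 0.745 and 0.645 in WT, and with 8 arrays its change was 1.14 ± 0.71 (limma adjusted p = 0.499).

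On the salicylate side, SAG101, a partner of the immune regulator EDS1, passed as higher in the mutant under DMSO with 7 arrays (log2 change 1.69 ± 0.25, limma adjusted p = 0.0205). Its mutant DMSO arrays read 0.983 and 2.89, against 0.973 and 0.819 in WT, and with 8 arrays the change was 0.92 ± 0.48 (limma adjusted p = 0.444). AT5G03350, a lectin-like gene induced by salicylate, rose in the mutant under BA, by 1.33 ± 0.28 (limma adjusted p = 0.0358 with 7 arrays, 0.241 with 8). WRKY53, a transcription factor of leaf senescence and defence, had 1.19 ± 0.43 under DMSO and did not pass (limma adjusted p = 0.320 with 8 arrays). Neither MYC4, a jasmonate-pathway transcription factor, at -0.49 ± 0.27 with BA in WT (limma adjusted p = 0.835 with 8 arrays), nor EIN3, the ethylene-pathway factor, at 0.54 ± 0.30 in the mutant under BA (limma adjusted p = 0.474 with 8 arrays), passed.

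By the protocol the roots were discarded, though the tissue label reads seedling. Markers of root tissue differed between the genotypes beside these genes, and genotype cannot be told apart from file-name prefix. All 5 root marker genes with a named probe set, of 25 listed, were lower on every mutant array than on every WT array. Their mean relative value was 0.770 and 0.396 in mutant BA, 1.22 and 1.73 in WT BA, 0.714 and 0.440 in mutant DMSO, and 1.27 and 1.40 in WT DMSO. None was at 0, and the lowest single value was 0.272. The share of all probe sets lower on every mutant array than on every WT array was not counted. That order is therefore a description only. Shares of all probe sets called with 7 arrays between the genotypes were given above with the family lists. With 7 arrays 2 of the 5 passed as lower in the mutant under BA, AGL42 (log2 change -1.65 ± 0.17, limma adjusted p = 0.00446, 0.132 with 8) and PYK10 (-1.10 ± 0.16, limma adjusted p = 0.0127, 0.182 with 8), and AGL42 also under DMSO (-1.63 ± 0.20, limma adjusted p = 0.0147, 0.205 with 8).

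The 3 measured shoot markers, of 23 listed, had a mean relative value of 1.08 and 1.06 in mutant BA, 0.748 and 0.656 in WT BA, 0.576 and 1.16 in mutant DMSO, and 1.02 and 1.02 in WT DMSO. The value of 0.576 was on mutant DMSO replicate 1. With 7 arrays 2 of the 3 passed as higher in the mutant under BA, LHCB4.2, a light-harvesting protein (log2 change 1.56 ± 0.34, limma adjusted p = 0.0407, 0.374 with 8), and RCA, the activase of Rubisco (0.62 ± 0.12, limma adjusted p = 0.0317, 0.463 with 8). The part of either set of markers in the genotype differences of the 6 genes was not tested. In RNA of whole tissue, fewer cells of a type and less RNA per cell cannot be told apart.

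The genes most like each of the 6 over the 8 arrays were sought among 13285 named genes by the root mean square (RMS) difference of their centred log2 values. For PDF1.2 they were PDF1.2b at 0.520, AT1G64590 at 0.993 and AT4G14060 at 1.00, and the last 2 were also next to PDF1.2b, at 0.868 and 0.744. AT4G14060 had values of 0.121 and 0.103 in mutant BA, 1.05 and 1.27 in WT BA, 0.955 and 0.130 in mutant DMSO, and 1.06 and 1.58 in WT DMSO. It was thus low on the same 3 mutant arrays and near 1 on mutant DMSO replicate 1.

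AT2G38240 was nearest to AT3G60290 at an RMS of 0.544, AT1G15010 at 0.595 and AT3G01830 at 0.715, each of them highest on mutant DMSO replicate 2. GRX480 was nearest to AT1G08050 at 0.323, AT3G09405 at 0.330 and AT3G25400 at 0.379, each highest on mutant DMSO replicate 1. AT1G10340 was nearest to AT5G10695 at 0.320, AT5G12010 at 0.323 and AT1G61360 at 0.328. AT1G02360 was nearest to AT2G24550 at 0.194, AT5G23840 at 0.217 and AT1G35330 at 0.260. The RMS grows with a gene's own spread, so it is not compared between the 6. AT2G24550 read 0.428 and 0.570 in mutant BA, 1.69 and 2.35 in WT BA, 0.906 and 0.842 in mutant DMSO, and 1.09 and 1.40 in WT DMSO. Pearson correlations of these pairs ran from 0.898 to 0.990 over 8 arrays that share the authors' scaling.

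Among the 6 themselves, GRX480 and AT1G10340 had a correlation of 0.884 over 8 arrays and 0.822 over 7. PDF1.2 and AT2G38240 had -0.576 over 8 and -0.561 over 7. For PDF1.2 and GRX480 the correlation was near 0, at 0.088 over 8 arrays and -0.102 over 7. With AT1G02360 it was positive for PDF1.2, at 0.754 and 0.787, and for PDF1.2b, at 0.786 and 0.814. AT2G38240 and GRX480 had 0.377 over 8 arrays and 0.744 over 7. These are descriptions of genes picked for their patterns.

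Genes beside the 6 on the chromosome, by the order in RefSeq, could be read in part. AT5G44410 and AT5G44440, near PDF1.2, had log2 changes of 0.13 and -0.17 in the mutant under BA, and AT1G02370, next to AT1G02360, had -0.03. Under DMSO AT1G10330 and AT1G10350, which flank AT1G10340, had 0.62 and 0.07 with 8 arrays, and 0.10 and 0.01 with 7. AT2G38250, next to AT2G38240, had 0.58 under DMSO with 8 arrays and 1.45 with 7 (limma adjusted p = 0.0533). Within the mutant its change with BA was -0.75 with 8 arrays and -1.62 with 7, the same sign as AT2G38240, and like that gene it was highest on mutant DMSO replicate 2, at 2.73.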

How the data were processed

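Total RNA of 8 samples was hybridised, after biotin labelling, to 1 Affymetrix array each, per the labels' protocols. The deposited values are linear ratios made by the authors, as the numbers show: the median across arrays is within 0.005 of 1 for 70.1% of the 22810 probe sets. For the summarising program, normalization and genome build, nothing is stated in the sources used here, so no coordinates and no absolute levels are given. Groups and replicate numbers came from the sample titles.

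The 64 control probe sets were left out, and 22746 were tested with limma 3.58.1 in R 4.3.3 on log2 of the deposited ratio with no offset, 1 mean per group and the spread shared by all groups. Adjusted p-values are Benjamini-Hochberg over all 22746, two-sided, with a threshold of 0.05. All fits were run with 8 arrays and with 7, without mutant DMSO replicate 1; the 7-array fit assumes that the lone array of that group varies like the others. Names came from the probe annotation, which gives 1 gene for 13513 probe sets, and 13436 were found in RefSeq (TAIR10.1), used only for names and the order of genes. Tables and figures were made in Python 3.11.15. The fits were tested on simulated data.

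The 6 genes and the gene lists were chosen with earlier results of these data known. The text names the 6 genes, each list gene that passed in any contrast (otherwise the list's gene with the lowest p), and the 3 genes most like each of the 6. On these arrays the number of replicates limits the precision. Alternatives were an offset of 1, quantile normalization, array weights, dim probe sets left out, the replicate number as a block, and each array left out.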

Additional observations from a re-analysis of the deposited data

Results flagged for a closer look

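GRX480 and AT1G02360 had both BA arrays above both DMSO arrays in WT and below them in the mutant. Over all probe sets, BA lay wholly above DMSO in WT at 20.6%, and wholly below it in the mutant at 15.1%. The share of probe sets with this opposite order was not counted, so how unusual it is was not tested. For GRX480 the difference in BA response, mutant minus WT, was -3.01 ± 0.37 on the log2 scale (8 arrays), made up of -2.07 in the mutant and 0.94 in WT. For AT1G02360 it was -1.63 ± 0.26, from -0.66 in the mutant and 0.97 in WT. Both genes were chosen with these values known, so the difference was not tested for them. The arrangement was not limited to them. The defensin LCR68 had it, with a difference of -0.70 ± 0.23 that did not pass (limma adjusted p = 0.510 with 8 arrays). The chitinase AT2G43590 showed the same arrangement, at -1.54 ± 0.56, from -0.98 in the mutant and 0.56 in WT, and did not pass (limma adjusted p = 0.534 with 8 arrays and 0.380 with 7).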

How the results depend on the processing

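The count of probe sets past the threshold depended on the setting. For the genotypes under BA it was 32 with 8 arrays, 61 with an offset of 1, 139 after quantile normalization and 1230 with array weights. Under DMSO it was 2, and 105 after quantile normalization. For BA in WT it was 5, then 12, 116 and 809 in the first order, and 960 with the WT arrays alone, a setting added after seeing the data. The difference in BA response gave 0, and 18 after quantile normalization. Of the 53 list genes, 0 passed under BA with 8 arrays, 1 with the offset, 1 after quantile normalization and 9 with weights, and in WT 0, then 3 with weights and 6 with the WT arrays alone. With the replicate number as a block, the 3 counts above 0 all became 0. Replicate numbers did not pair the samples (correlations of deviations between groups from -0.174 to 0.124).

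Leaving out 1 array, or mutant DMSO replicate 1 and a further array (added after seeing the data), gave 0 to 2263 probe sets under BA, 0 to 5279 under DMSO, 0 to 960 for BA in WT, 0 to 5488 for BA in the mutant and 0 to 4732 for the difference in response. The list genes gave 0 to 15, 0 to 12, 0 to 6, 0 to 5 and 0 to 7 in that order. Leaving out either mutant DMSO array gave the same GRX480 value in WT (limma adjusted p = 0.0377), because the contrast does not use that group and each removes its spread. Signs turned for AT2G38240 between the genotypes under BA (-0.71 to 1.11) and with BA in the mutant (-3.40 to 1.02), for PDF1.2 with BA in the mutant (-4.23 to 1.42) and in the difference (-3.59 to 2.05), and for PDF1.2b in the same pair (-3.54 to 0.65 and -3.25 to 0.93). The cause was not tested. All other changes of the 6 genes kept their sign.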
